A study of Homo sapiens with 9 samples.

Results

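Oxidative phosphorylation is the last stage of respiration, in which complexes I to IV of the inner mitochondrial membrane pass electrons to oxygen and pump protons, and complex V, the ATP synthase, lets the protons flow back to make ATP. Most subunits of complexes I, III, IV and V, and all of complex II, are encoded in the nucleus, while the core membrane subunits of the others come from mitochondrial DNA, so both genomes have to be expressed to build the chain. Nuclear respiratory factor 1, GABP (an ETS factor) and YY1 are transcription factors known to act at many of the nuclear genes. Prostate cancer cells are known for relying on respiration more than the normal zinc-rich secretory epithelium does.

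The nuclear-encoded genes of this system were taken by symbol (NDUFA, NDUFB, NDUFC, NDUFS, NDUFV, SDHA to SDHD, UQCR, COX4 to COX8 and ATP5) among genes with a protein-coding transcript. This gave 96 of the 60612 genes in the table: 37 subunits of complex I, 8 complex I assembly factors (the NDUFAF genes, which the same symbols bring in), 4 subunits of complex II, 9 of complex III, 19 of complex IV and 19 of complex V. NDUFA4 carries a complex I symbol but belongs to complex IV and was counted there. Another 157 names of the same form without a protein-coding transcript, mostly pseudogenes, were left out. Of the 96 members, 88 passed the filter on low values (FPKM, fragments per kilobase of gene model scaled for depth, of at least 1 in at least 3 libraries), and those 88 reached it in every library, so no member entered through 1 group alone.

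RNA was sequenced from VCaP, an established human prostate cancer line, cultured and transfected with siRNA 1 against KMT2C, siRNA 2 against KMT2C or a control siRNA for 4 days, with 3 libraries per group. All groups are the same line and all received an siRNA, and the labels give no other genetic change. KMT2C encodes a histone H3 lysine 4 methyltransferase that acts at enhancers. The labels do not say whether the replicates were separate cultures, so p-values below reflect the spread among these libraries alone, part or all of which may be technical. The comparisons of siRNA 1 and of siRNA 2 with control use the same 3 control libraries, and the direct contrast of the siRNAs tests the difference between their effects.

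Library totals were 58462215 to 70726213 estimated counts. KMT2C itself had 1.54, 1.80 and 2.28 FPKM with siRNA 1 and 1.72, 1.64 and 1.73 FPKM with siRNA 2, against 13.7, 12.1 and 12.9 FPKM with control siRNA. It fell by 2.81 ± 0.13 (SE) with siRNA 1 and fell by 2.98 ± 0.13 with siRNA 2 on the log2 scale (edgeR adjusted p = 4.56e-06 and 8.76e-07), and the siRNA 1 minus siRNA 2 difference of 0.17 ± 0.12 was not called (adjusted p = 0.308). An exact 2-sided permutation test gave p = 0.1 for each siRNA against control, the smallest that 3 against 3 libraries allow. All 8 prostate markers chosen for VCaP reached 1 FPKM in every library, the lowest being KLK3 at 2.75, while none of 5 retina, 3 fibroblast, 3 immune or 2 endothelial markers reached 1 FPKM in any library (highest 0.593). In bulk RNA, fewer cells of a kind and less RNA per cell cannot be told apart.

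One library stood apart for these genes. In siRNA 1 replicate 1, the members lay a median of 0.15 above their group mean on the log2 CPM scale, against -0.08 and -0.07 in siRNA 1 replicates 2 and 3 and -0.02 to 0.02 in the 6 siRNA 2 and control libraries. It held the highest value of its group for 66 of the 88 members. Gene length moved with it: in that library the 20% of tested genes with the shortest models (up to 2164 nt of gene model) lay 0.08 above the group mean and the 20% with the longest (from 7887 nt) 0.09 below it. The gene models of the members have a median length of 2398 nt, against 4610 nt for all tested genes. The counts by complex, gene list and motif that rest on siRNA 1 are therefore also given without this library. Shares of all genes are given with all libraries only.

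**Figure D1:**
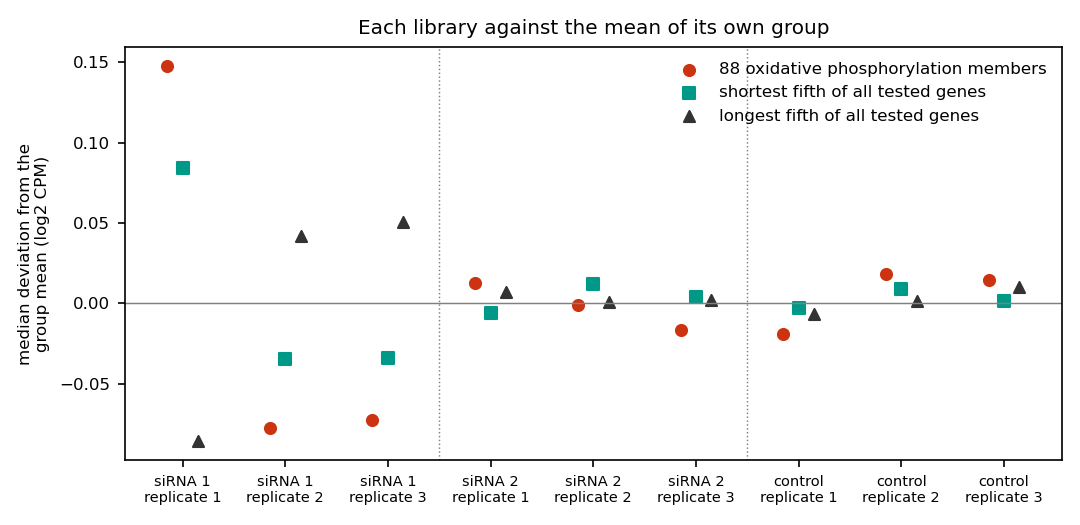
Median deviation of each library from the mean of its own group (log2 CPM, vertical axis) for the 88 tested members (circles), the 20% of tested genes with the shortest models (squares) and the 20% with the longest (triangles), with siRNA 1, siRNA 2 and control libraries from left to right. The members sit 0.15 above the group mean in siRNA 1 replicate 1, and the longest genes 0.09 below it.

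The stretches before the start sites of 4 members are shown, chosen after their values were seen. They are 1 each for a complex I assembly factor, an ATP synthase subunit and a complex II subunit that rose with both siRNAs. The fourth is NDUFB4, 1 of the 2 complex I subunits that fell with both. Sequences are from RefSeq (GRCh38.p14), 250 bases before the annotated start, written 5′ to 3′ on the gene's strand. Capitals mark matches, on either strand, to the nuclear respiratory factor 1 motif (the capitals in NDUFB4), CCGGAAG (ETS factors, GABP among them) and AANATGGCG (YY1). The windows lie at chr5:60944955-60945204 (plus strand) for NDUFAF2, chr10:103396476-103396725 (minus) for ATP5MD, chr1:17054033-17054282 (minus) for SDHB and chr3:120596086-120596335 (plus) for NDUFB4.
NDUFAF2: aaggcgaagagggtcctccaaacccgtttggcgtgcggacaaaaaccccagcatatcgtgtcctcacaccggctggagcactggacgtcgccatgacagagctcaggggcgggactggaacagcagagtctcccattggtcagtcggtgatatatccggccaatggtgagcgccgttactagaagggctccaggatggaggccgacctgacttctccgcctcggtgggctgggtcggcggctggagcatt
ATP5MD: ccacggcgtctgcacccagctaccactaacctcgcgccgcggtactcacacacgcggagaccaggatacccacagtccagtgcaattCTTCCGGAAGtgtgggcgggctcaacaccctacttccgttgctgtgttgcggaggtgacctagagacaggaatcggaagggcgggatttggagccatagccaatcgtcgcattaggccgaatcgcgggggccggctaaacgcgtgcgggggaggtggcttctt
SDHB: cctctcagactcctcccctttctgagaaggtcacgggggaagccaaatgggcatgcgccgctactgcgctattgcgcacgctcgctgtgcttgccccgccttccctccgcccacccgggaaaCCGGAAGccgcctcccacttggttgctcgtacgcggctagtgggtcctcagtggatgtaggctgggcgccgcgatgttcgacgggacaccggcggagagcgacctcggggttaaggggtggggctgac
NDUFB4: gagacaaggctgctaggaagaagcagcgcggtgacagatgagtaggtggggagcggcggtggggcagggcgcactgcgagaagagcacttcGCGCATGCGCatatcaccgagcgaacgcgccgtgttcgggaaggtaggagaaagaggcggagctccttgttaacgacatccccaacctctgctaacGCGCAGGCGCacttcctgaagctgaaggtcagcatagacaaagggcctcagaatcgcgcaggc
NDUFAF2 holds none of these letter strings in this window. ATP5MD holds 2 overlapping ETS matches, since the run of capitals reads the motif on both strands, and SDHB holds 1. NDUFB4, which fell, holds 2 matches to the nuclear respiratory factor 1 motif.

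RefSeq start windows of 300 bases (250 before and 50 after the start) were found for 78 of the 96 members and for 9091 of the tested genes. The nuclear respiratory factor 1 string was in 18 members' windows (23.1%, against 13.1% of the windows of tested genes), the ETS string in 22 (28.2%, against 21.1%) and the YY1 string in 18 (23.1%, against 7.79%). At least 1 of them was in 45 windows (57.7%, against 36.3%). Among members that rose with siRNA 1, 5 of 32 held the nuclear respiratory factor 1 string and 11 of 32 the ETS string, and among those not called 11 of 39 and 11 of 39 did. With siRNA 2 the nuclear respiratory factor 1 string was in 10 of 30 windows of members that rose and 6 of 37 of those not called, and the ETS string in 10 of 30 and 11 of 37. The YY1 string was in 6 of 32 that rose and 12 of 39 not called with siRNA 1, and in 5 of 30 and 11 of 37 with siRNA 2. Without siRNA 1 replicate 1, the nuclear respiratory factor 1, ETS and YY1 strings were in 5, 11 and 5 of 30 windows of members that rose with siRNA 1 and in 11, 10 and 12 of 38 of those not called. A match is only a run of letters and no measure of binding.

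The levels of the members spanned a wide range. COX8A, a small subunit of complex IV, was the highest at a mean of 1227 FPKM over the 9 libraries, followed by ATP5F1B, the catalytic beta subunit of the ATP synthase, at 571 FPKM. NDUFAF5, an assembly factor, was the lowest of the tested members at 1.50 FPKM. The median member stood at 22.6 FPKM in complex I, 5.90 among the assembly factors, 25.5 in complex II, 43.7 in complex III, 41.4 in complex IV and 43.1 in complex V. These are levels per length of the gene model used by the authors, which is often longer than the mature mRNA, so the order of nearby genes is uncertain. Summed over all 96 members, FPKM was 5858, 5350 and 5208 with siRNA 1 and 5609, 5653 and 5494 with siRNA 2, against 4810, 4689 and 4822 with control siRNA. Every knockdown library was thus above every control library in the sum. Complex V summed to 1493 ± 51.4 FPKM with siRNA 1 and 1546 ± 36.5 with siRNA 2, against 1222 ± 27.9 with control siRNA, and complex II to 96.8 ± 8.09 and 121 ± 5.72, against 80.9 ± 3.19 (SD, n = 3).

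**Figure D2:**
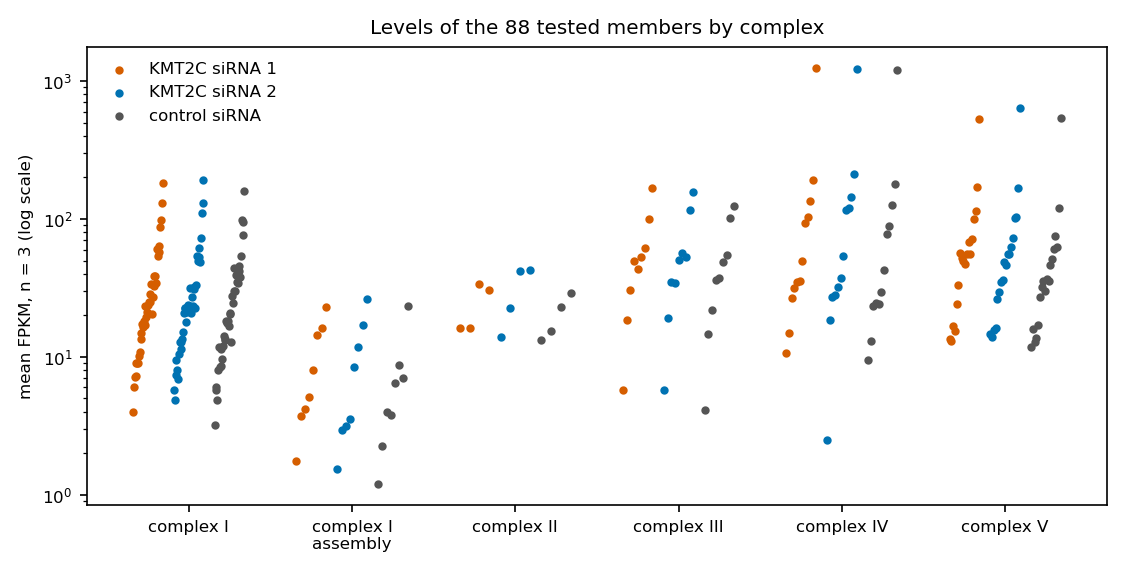
Mean FPKM (n = 3, log scale, vertical axis) of each of the 88 tested members by complex, with siRNA 1 in orange, siRNA 2 in blue and control siRNA in grey, each point 1 gene. The assembly factors have the lowest median level at 5.90 FPKM, and the point far below the others in complex IV with siRNA 2 is COX7A2L.

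The other 8 members were at or near 0. COX4I2, COX6A2 and COX7B2 were listed at 0.0001, the value given to genes without counts, in every library. COX6B2 reached at most 0.0643 FPKM, COX7A1 0.165, COX8C 0.0908 and ATP5MGL 0.0591. NDUFA4L2, a hypoxia-induced relative of NDUFA4, had 0.0323, 0.114 and 0.157 FPKM with siRNA 1 and 0.745, 0.561 and 0.506 FPKM with siRNA 2, against 0.143, 0.0672 and 0.0986 FPKM with control siRNA. It stood highest in the siRNA 2 libraries but below the filter. With no filter beyond a count above 0 it entered the test, and was higher than control with siRNA 2 by 2.38 ± 0.54 (edgeR adjusted p = 0.0105), with a siRNA 1 minus siRNA 2 difference of -2.42 ± 0.54 (adjusted p = 0.0135). Of 8 alternative isoforms and copies that were listed as a group, only UQCRHL, a copy of UQCRH, was tested.

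With siRNA 1, 39 of the 88 tested members rose, 2 fell and 47 were not called, with a median log2 fold change of 0.24. Over all 12830 genes tested, 21.2% rose and 20.5% fell with a median of 0.01, while 44.3% of the members rose. Without siRNA 1 replicate 1, 38 rose and 5 fell, 39 of the 41 calls remained (NDUFB6 and NDUFV2 were lost) and the median was 0.16. The 3 siRNA 1 libraries all lay above the 3 control libraries in FPKM for 48 members (28.6% of all genes) and all below for 3 (24.5% of all genes). By complex, 13 of 37 complex I subunits rose and 2 fell, 4 of 8 assembly factors rose, as did 2 of 4 in complex II, 5 of 9 in complex III, 3 of 12 in complex IV and 12 of 18 in complex V, where no member fell. The medians were 0.21, 0.47, 0.16, 0.32, 0.18 and 0.37 in that order on the log2 scale. Without siRNA 1 replicate 1, 12 rose and 4 fell in complex I, 12 rose and 1 fell in complex V, and the counts of the other 4 groups were as before, while the medians were 0.10, 0.35, 0.12, 0.27, 0.07 and 0.33. Those of complexes I and IV thus moved by over 1.5 times with this 1 library.

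With siRNA 2, 38 of the 88 rose, 7 fell and 43 were not called, with a median log2 fold change of 0.22. Of all genes tested, 24.4% rose and 24.9% fell with a median of 0.02, while 43.2% of the members rose. All 3 siRNA 2 libraries lay above the controls for 59 members (35.2% of all genes) and below for 11 (27.6%). In complex I, 11 of 37 rose and 6 fell, and 2 of 8 assembly factors rose. In complex II 3 of 4 rose, in complex III 5 of 9, in complex IV 4 of 12 with 1 fall, and in complex V 13 of 18. The medians were 0.15, 0.32, 0.49, 0.29, 0.23 and 0.24 in the same order. All groups share 1 estimate of the spread, so siRNA 1 replicate 1 bears on these calls too: without it 47 members rose and 9 fell with siRNA 2, and in complex IV 9 of 12 rose. The share of all genes called in that fit is not given here, so these counts show no gain particular to the members.

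In the direct contrast, 16 members were higher with siRNA 1 than with siRNA 2 and 11 lower, against 20.6% and 18.9% of all genes, and the median of the members was 0.00. Libraries of the siRNAs did not overlap for 19 members higher with siRNA 1 (24.9% of all genes) and 16 lower (27.4%). Without siRNA 1 replicate 1 the counts were 12 higher and 22 lower, with no share of all genes given for that fit. The shares of the members were thus 18.2% higher and 12.5% lower with all libraries.

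**Figure D3:**
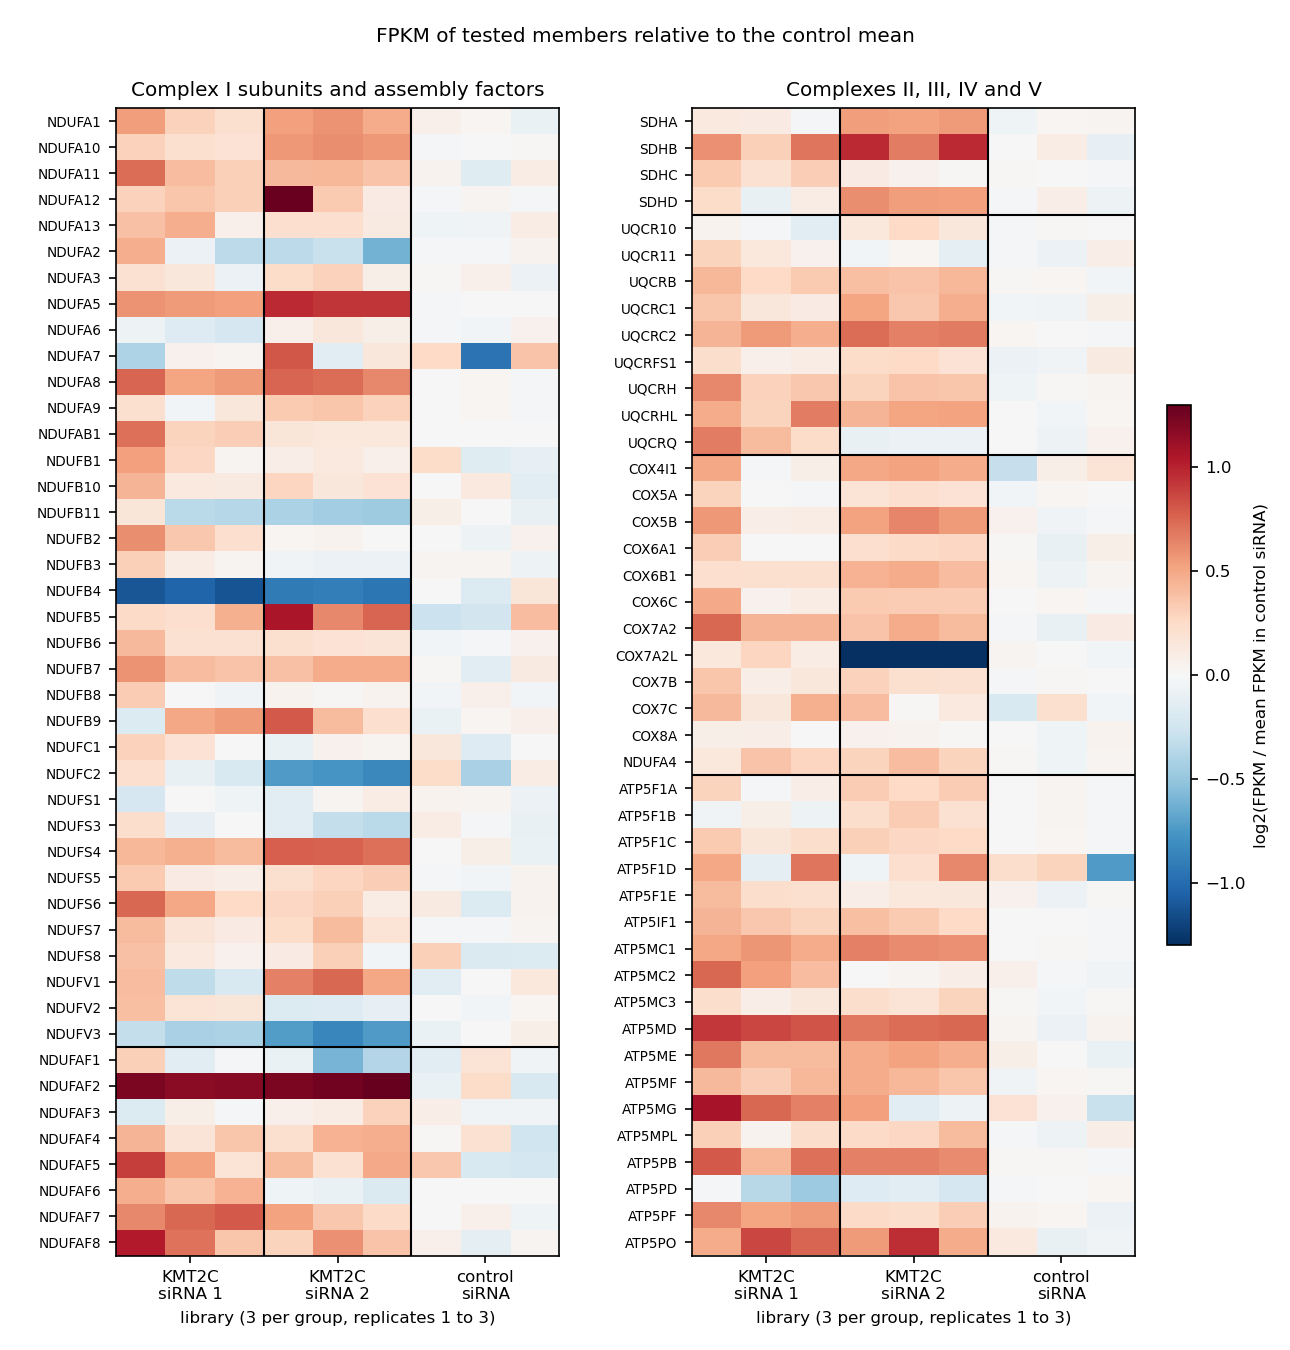
FPKM of tested members in each library as log2 of the ratio to the control mean (red higher, blue lower), in columns of 3 siRNA 1, 3 siRNA 2 and 3 control libraries; values past the ends of the scale take the end colour. NDUFAF2 is red in all 6 knockdown libraries and NDUFB4 blue in all 6, while COX7A2L is dark blue in the 3 siRNA 2 libraries.

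**Figure D4:**
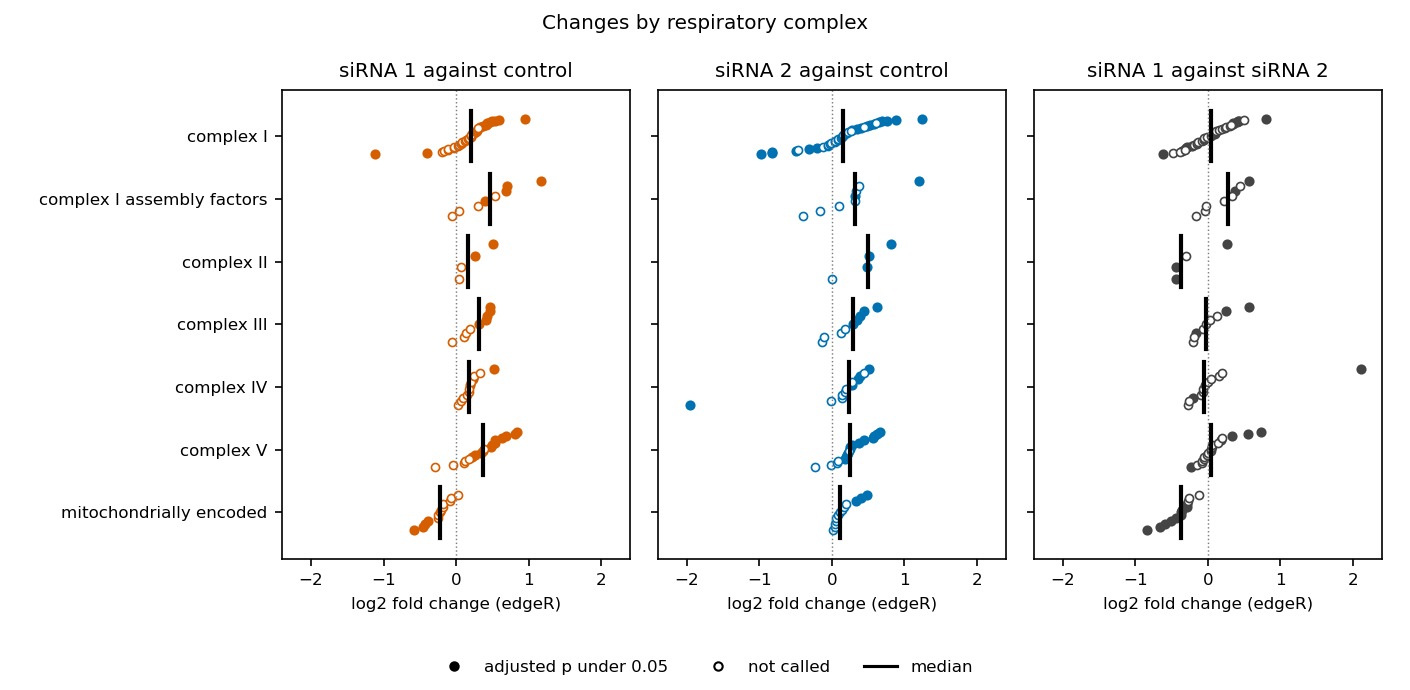
Log2 fold change of each tested member (horizontal axis) by complex and, in the lowest row, of the 13 mitochondrially encoded mRNAs, for siRNA 1 against control, siRNA 2 against control and siRNA 1 against siRNA 2; filled points have an edgeR adjusted p under 0.05, open points do not, and bars are medians. Of the 18 complex V members, 16 lie to the right of 0 with each siRNA, and the medians are 0.37 and 0.24.

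Complex I takes electrons from NADH. The calls of the core subunits that oxidise NADH differed. NDUFV1, which binds FMN and NADH, had 45.4, 27.4 and 30.0 FPKM with siRNA 1 and 54.2, 57.8 and 48.9 FPKM with siRNA 2, against 31.0, 34.6 and 37.8 FPKM with control siRNA. It rose with siRNA 2 (0.58 ± 0.19, adjusted p = 0.0297), while its change with siRNA 1 was -0.03 ± 0.19 (adjusted p = 0.911) and siRNA 1 replicate 1 lay far above the other siRNA 1 libraries. NDUFV2, its iron-sulphur partner, had 70.7, 61.1 and 60.3 FPKM with siRNA 1 and 47.8, 48.0 and 50.2 FPKM with siRNA 2, against 54.3, 52.7 and 55.1 FPKM with control siRNA. It was higher than control with siRNA 1 (0.22 ± 0.08, adjusted p = 0.0433) and lower with siRNA 2 (-0.21 ± 0.08, adjusted p = 0.0492), and the direct difference was 0.43 ± 0.08 (adjusted p = 0.00229). NDUFS3, another core subunit, fell with siRNA 2 by 0.32 on the log2 scale (adjusted p = 0.0437), with 0.03 for siRNA 1 (adjusted p = 0.871). NDUFS1, NDUFS7 and NDUFS8 were not called in either comparison with control. The opposite calls of NDUFV2 are weak: leaving out 1 of 7 libraries ended each of them (adjusted p up to 0.110 for siRNA 1 and 0.128 for siRNA 2), among them every control library, and siRNA 1 replicate 1 for siRNA 1. NDUFV2 also has 1 pseudogene copy, at a mean of 7.53 FPKM, so its count is uncertain. The NDUFV1 rise with siRNA 2 was lost without any 1 of 4 libraries (edgeR adjusted p up to 0.0954). Its direct difference was lost without any 1 of 4 as well. The NDUFS3 fall with siRNA 2 was lost without any 1 of 6 (adjusted p up to 0.124). NDUFV1 shares exon positions with AP003385.3 and C11orf72, and NDUFS3 with PTPMT1, CELF1 and KBTBD4.

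Among the 30 accessory subunits, 11 rose and 2 fell with siRNA 1 (36.7% and 6.67%, against 21.2% and 20.5% of all genes). Without siRNA 1 replicate 1 these counts were 11 and 4. With siRNA 2, 9 rose and 4 fell, and that share of rises, 30.0%, is near the 24.4% of all genes. NDUFB4 (ENSG00000065518, GRCh38 chr3:120596328-120602507, plus strand), of the membrane arm, had the deepest fall in complex I in both comparisons with control. It had 20.4, 21.3 and 20.1 FPKM with siRNA 1 and 23.2, 23.5 and 22.9 FPKM with siRNA 2, against 44.0, 39.0 and 48.8 FPKM with control siRNA. All 6 knockdown libraries lay below the lowest control library. NDUFB4 fell by 1.12 ± 0.08 with siRNA 1 (adjusted p = 3.02e-05) and by 0.97 ± 0.08 with siRNA 2 (adjusted p = 2.55e-05), and the direct difference was -0.14 ± 0.08 (adjusted p = 0.211). NDUFB4 has 12 pseudogene copies in the table, with a summed mean of 2.89 FPKM, so the split of reads between them is uncertain.

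NDUFV3 (GRCh38 chr21:42879644-42913304, plus strand), a small subunit of the NADH-oxidising arm, was the other one to fall with both. It had 9.48, 8.75 and 8.85 FPKM with siRNA 1 and 7.12, 6.52 and 7.04 FPKM with siRNA 2, against 11.1, 11.8 and 12.3 FPKM with control siRNA. The order was siRNA 2 lowest, siRNA 1 between and control highest, without overlap. The log2 fold changes were -0.40 ± 0.07 (adjusted p = 0.00282) and -0.82 ± 0.08 (adjusted p = 3.68e-05), and the difference between them was 0.42 ± 0.08 (adjusted p = 0.00247). NDUFC2, another membrane-arm subunit, had 45.5, 36.7 and 34.0 FPKM with siRNA 1 and 23.4, 23.0 and 21.9 FPKM with siRNA 2, against 46.2, 29.3 and 41.9 FPKM with control siRNA. It fell with siRNA 2 (-0.83 ± 0.17, adjusted p = 0.00328), with -0.03 ± 0.17 for siRNA 1 (adjusted p = 0.889) and a direct difference of 0.80 ± 0.17 (adjusted p = 0.00568). NDUFC2 shares exons with the read-through gene NDUFC2-KCTD14, so its count is uncertain. NDUFB11 fell with siRNA 2 as well, by 0.50 on the log2 scale (adjusted p = 0.0158), with -0.19 for siRNA 1 (adjusted p = 0.305) and its exons overlap those of RBM10. NDUFB11 was called lower with siRNA 1 as well when siRNA 1 replicate 1 was left out (-0.39, adjusted p = 0.00159).

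NDUFA5 (GRCh38 chr7:123536997-123557904, minus strand), of the peripheral arm, was the most even of the risers. It had 7.34, 7.21 and 7.09 FPKM with siRNA 1 and 9.62, 9.36 and 9.33 FPKM with siRNA 2, against 4.87, 4.93 and 4.92 FPKM with control siRNA. The groups were far apart next to their spread. NDUFA5 rose by 0.53 ± 0.05 (adjusted p = 1.14e-04) and 0.89 ± 0.05 (adjusted p = 3.41e-06) on the log2 scale, with a difference of -0.36 ± 0.05 (adjusted p = 8.33e-04). It has 12 pseudogene copies with a summed mean of 4.08 FPKM, close to its own level, so its count is uncertain. NDUFA8 rose by 0.59 and 0.65 and NDUFA10 by 0.21 and 0.52 on the log2 scale with siRNA 1 and siRNA 2. NDUFB7, with 143, 126 and 123 FPKM with siRNA 1 and 124, 133 and 133 FPKM with siRNA 2, against 95.9, 85.7 and 103 FPKM with control siRNA, rose by 0.43 ± 0.09 (adjusted p = 0.00545) and 0.40 ± 0.09 (adjusted p = 0.00670). NDUFS5, the highest of complex I, had 203, 173 and 170 FPKM with siRNA 1 and 186, 195 and 199 FPKM with siRNA 2, against 158, 156 and 166 FPKM with control siRNA. Its groups did not overlap with control, but its log2 fold changes of 0.16 ± 0.08 (adjusted p = 0.162) and 0.21 ± 0.08 (adjusted p = 0.0624) were not called, and both turned negative (-0.15 and -0.10) when a trend with gene length was taken out of each library. The siRNA 2 value was called without siRNA 1 replicate 1 (0.21, adjusted p = 0.00871).

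NDUFA1, NDUFA11, NDUFA5, NDUFA8, NDUFA10, NDUFB7 and NDUFS4 were among those that rose in both comparisons with control. NDUFAB1 (the mitochondrial acyl carrier protein), NDUFB2, NDUFB6, NDUFS6 and NDUFV2 rose with siRNA 1, and NDUFA9, NDUFB5 and NDUFV1 with siRNA 2. For NDUFAB1, NDUFB2 and NDUFV2 the direct contrast was called (0.35, 0.41 and 0.43 on the log2 scale), and for NDUFV1 as well (-0.61), while for NDUFA9, NDUFB5, NDUFB6 and NDUFS6 it was not, so with all libraries these 4 are not shown to differ between the siRNAs. Leaving out 1 library brought a call in the direct contrast for 3 of them: NDUFA9 without siRNA 1 replicate 1 (-0.25, adjusted p = 0.0211), NDUFS6 without siRNA 1 replicate 3 (0.44, adjusted p = 0.0257) and NDUFB5 without control replicate 3 (-0.48, adjusted p = 0.0226). NDUFA9 was also called with limma at both pseudocounts, and NDUFB5 when only the 2 groups compared were fitted. Some members were uneven within a group and were not called. NDUFA12 had 32.1 FPKM in siRNA 2 replicate 1 and 16.6 and 14.2 in the others, and NDUFA7 had 9.38 FPKM in control replicate 2 and 21.7 and 23.5 in the others.

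Assembly factors join the modules of complex I without staying in it. NDUFAF2 (GRCh38 chr5:60945205-61153026, plus strand), which acts late in assembly and is related to the subunit NDUFA12, had 16.5, 15.9 and 16.0 FPKM with siRNA 1 and 16.5, 16.9 and 17.5 FPKM with siRNA 2, against 6.66, 8.35 and 6.18 FPKM with control siRNA. All 6 knockdown libraries were close to each other and above the controls. NDUFAF2 rose by 1.17 ± 0.12 (adjusted p = 1.49e-04) and 1.21 ± 0.12 (adjusted p = 6.41e-05) on the log2 scale, and the direct difference was -0.04 ± 0.12 (adjusted p = 0.832). NDUFAF7, a methyltransferase of the mitochondrial matrix, had 3.49, 3.81 and 3.93 FPKM with siRNA 1 and 3.25, 2.89 and 2.70 FPKM with siRNA 2, against 2.26, 2.37 and 2.18 FPKM with control siRNA. It rose by 0.69 ± 0.10 (adjusted p = 8.30e-04) and 0.32 ± 0.10 (adjusted p = 0.0274), more with siRNA 1 (difference 0.37 ± 0.10, adjusted p = 0.0183). NDUFAF6 had 5.31, 4.91 and 5.21 FPKM with siRNA 1 and 3.66, 3.60 and 3.34 FPKM with siRNA 2, against 3.81, 3.84 and 3.81 FPKM with control siRNA. It rose with siRNA 1 (0.40 ± 0.07, adjusted p = 0.00251), with -0.17 ± 0.07 for siRNA 2 (adjusted p = 0.0898) and a difference of 0.57 ± 0.07 (adjusted p = 4.11e-04). NDUFAF8 rose with siRNA 1 (0.70 ± 0.17, adjusted p = 0.0104) and was not called with siRNA 2 or in the direct contrast. Without siRNA 1 replicate 1 it was called higher with siRNA 2 too (0.37, edgeR adjusted p = 0.0382). Its direct difference was then 0.14 (adjusted p = 0.462), but it was called without siRNA 1 replicate 3 (0.49, adjusted p = 0.0319). NDUFAF1, NDUFAF3, NDUFAF4 and NDUFAF5 were not called in any of the 3 comparisons, and NDUFAF3, the highest factor, had 20.8 to 24.8 FPKM with siRNA 1 and 24.5 to 28.9 with siRNA 2, against 22.7 to 24.9 with control siRNA.

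Complex II, or succinate dehydrogenase, is also an enzyme of the citric acid cycle and has no mitochondrially encoded subunit. SDHB (GRCh38 chr1:17018722-17054032, minus strand), its iron-sulphur subunit, had 34.8, 28.5 and 37.2 FPKM with siRNA 1 and 45.0, 36.6 and 45.2 FPKM with siRNA 2, against 23.1, 24.6 and 21.4 FPKM with control siRNA. It rose by 0.52 ± 0.12 (adjusted p = 0.0104) and 0.82 ± 0.12 (adjusted p = 7.11e-04), and the difference of -0.30 ± 0.12 was not called (adjusted p = 0.0842). The other subunits divided between the siRNAs. SDHA, the flavoprotein, had 16.8, 16.6 and 15.3 FPKM with siRNA 1 and 22.5, 22.2 and 22.6 FPKM with siRNA 2, against 14.8, 15.7 and 15.8 FPKM with control siRNA. It rose with siRNA 2 (0.48 ± 0.06, adjusted p = 2.40e-04), with 0.05 ± 0.06 for siRNA 1 (adjusted p = 0.565) and a difference of -0.43 ± 0.06 (adjusted p = 6.61e-04).

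The 2 membrane anchors of complex II moved with different siRNAs. SDHD had 34.2, 27.2 and 31.0 FPKM with siRNA 1 and 44.1, 42.4 and 42.1 FPKM with siRNA 2, against 28.5, 30.7 and 27.8 FPKM with control siRNA. SDHD rose with siRNA 2 (0.51 ± 0.09, adjusted p = 0.00190), with 0.06 ± 0.09 for siRNA 1 (adjusted p = 0.625) and a difference of -0.44 ± 0.09 (adjusted p = 0.00524). SDHC had 16.9, 15.3 and 16.6 FPKM with siRNA 1 and 14.3, 13.8 and 13.5 FPKM with siRNA 2, against 13.5, 13.4 and 13.2 FPKM with control siRNA. SDHC rose with siRNA 1 (0.26 ± 0.06, adjusted p = 0.0107), with 0.00 ± 0.06 for siRNA 2 (adjusted p = 0.980) and a difference of 0.26 ± 0.06 (adjusted p = 0.0117). SDHA has 3 pseudogene copies with a summed mean of 6.88 FPKM, and SDHD overlaps TIMM8B and SDHC overlaps CFAP126, so their counts are uncertain.

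Complex III passes electrons from reduced coenzyme Q to cytochrome c. UQCRC2 (GRCh38 chr16:21953288-21973957, plus strand), a core protein of its matrix side, had 29.4, 31.8 and 30.0 FPKM with siRNA 1 and 35.8, 34.1 and 34.7 FPKM with siRNA 2, against 22.1, 21.6 and 21.5 FPKM with control siRNA. The 3 groups did not overlap, and the siRNA 1 minus siRNA 2 difference was -0.17 ± 0.05 (adjusted p = 0.0274). UQCRC1, its partner, rose with siRNA 2 (0.39 ± 0.09, adjusted p = 0.00620), with 0.19 ± 0.09 for siRNA 1 (adjusted p = 0.130) and a difference of -0.21 ± 0.09 that was not called (adjusted p = 0.101) but was without siRNA 1 replicate 1 (-0.30, adjusted p = 0.0136). UQCRB rose by 0.32 ± 0.06 (adjusted p = 0.00328) and 0.34 ± 0.06 (adjusted p = 0.00171). UQCRH, the hinge protein between cytochromes c1 and c, had 193, 153 and 160 FPKM with siRNA 1 and 152, 161 and 161 FPKM with siRNA 2, against 120, 126 and 128 FPKM with control siRNA, and rose by 0.41 ± 0.09 (adjusted p = 0.00839) and 0.29 ± 0.09 (adjusted p = 0.0328). Its near-identical copy UQCRHL, at a mean of 5.20 FPKM, rose by 0.46 and 0.44 on the log2 scale, and reads may be split between them. UQCRQ had 57.5, 48.4 and 43.0 FPKM with siRNA 1 and 34.1, 34.5 and 34.5 FPKM with siRNA 2, against 36.6, 34.7 and 37.9 FPKM with control siRNA, with a rise of 0.42 ± 0.10 with siRNA 1 (adjusted p = 0.0111) and a difference of 0.56 ± 0.10 between the siRNAs (adjusted p = 0.00293). UQCRFS1, the Rieske iron-sulphur protein, UQCR10 and UQCR11 were not called against control.

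Complex IV, cytochrome c oxidase, reduces oxygen. Its largest change came from COX7A2L (GRCh38 chr2:42333546-42425088, minus strand), also named SCAF1, which joins complexes III and IV into supercomplexes. COX7A2L had 10.4, 11.4 and 10.1 FPKM with siRNA 1 and 2.12, 2.18 and 3.23 FPKM with siRNA 2, against 9.67, 9.39 and 9.23 FPKM with control siRNA. The 3 siRNA 2 libraries lay far below the other 6, at 26.6% of the control mean. COX7A2L fell by 1.96 ± 0.16 with siRNA 2 (adjusted p = 1.65e-05), next to 0.15 ± 0.15 for siRNA 1 (adjusted p = 0.468), and the direct difference of 2.11 ± 0.16 (adjusted p = 2.02e-05) was the largest of the 88 members. In GENCODE release 29 no other gene's exons overlap COX7A2L, and no pseudogene copy of it was found in the table. Its relative COX7A2, which sits in complex IV itself, did not follow it: it had 40.3, 32.6 and 32.6 FPKM with siRNA 1 and 31.1, 33.5 and 31.9 FPKM with siRNA 2, against 23.8, 22.5 and 25.9 FPKM with control siRNA, and rose by 0.52 ± 0.10 (adjusted p = 0.00378) and 0.36 ± 0.10 (adjusted p = 0.0171).

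Of the 11 other complex IV members, 3 rose with siRNA 1 and 4 with siRNA 2, and none fell. Those shares of rises, 27.3% and 36.4%, stand beside 21.2% and 24.4% of all genes, and the siRNA 1 share is near that of all genes. Of all genes 20.5% fell with siRNA 1 and 24.9% with siRNA 2. COX6B1, on the side where cytochrome c docks, had 104, 103 and 103 FPKM with siRNA 1 and 121, 124 and 117 FPKM with siRNA 2, against 90.5, 85.3 and 91.4 FPKM with control siRNA, and rose by 0.19 ± 0.05 (adjusted p = 0.0164) and 0.39 ± 0.05 (adjusted p = 2.89e-04). NDUFA4 rose by 0.24 ± 0.07 (adjusted p = 0.0188) and 0.27 ± 0.07 (adjusted p = 0.00854). COX5B rose with siRNA 2 (0.52 ± 0.13, adjusted p = 0.00851), with 0.24 ± 0.13 for siRNA 1 (adjusted p = 0.154) and a difference of -0.27 ± 0.13 that was not called (adjusted p = 0.119). That rests on siRNA 1 replicate 1: without it, COX5B had 0.06 for siRNA 1 (adjusted p = 0.366) and a called difference of -0.46 ± 0.05 (adjusted p = 3.64e-04). COX8A, the highest member, had 1269, 1271 and 1206 FPKM with siRNA 1 and 1248, 1238 and 1214 FPKM with siRNA 2, against 1206, 1152 and 1243 FPKM with control siRNA. Its groups overlapped, and its log2 fold changes were 0.03 ± 0.05 (adjusted p = 0.650) and -0.02 ± 0.05 (adjusted p = 0.819). With a trend with gene length taken out of each library, COX8A was called lower with siRNA 1 (-0.29, edgeR adjusted p = 0.00632) and with siRNA 2 (-0.34, adjusted p = 0.00207). COX6A1, the next highest, had 223, 179 and 178 FPKM with siRNA 1 and 207, 212 and 214 FPKM with siRNA 2, against 181, 166 and 188 FPKM with control siRNA, and was not called. It has 2 pseudogene copies with a summed mean of 27.9 FPKM, so its count is uncertain. COX4I1, COX5A, COX6C, COX7B and COX7C were not called against control either. The 5 genes COX4I1, COX5A, COX6A1, COX6C and COX7B were called higher with siRNA 2, by 0.14 to 0.44 on the log2 scale, once siRNA 1 replicate 1 was left out.

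**Figure D5:**
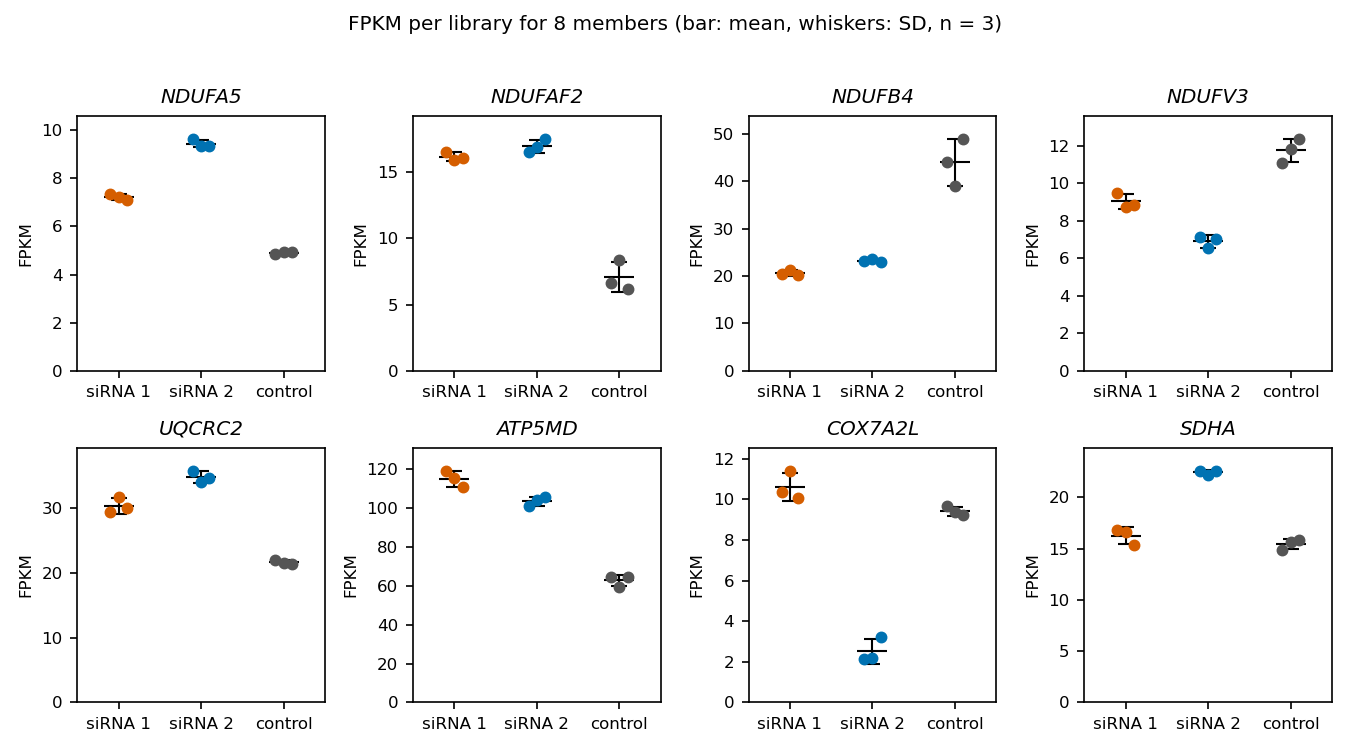
FPKM of 8 members in each library (points), with the mean (bar) and SD (whiskers, n = 3) for siRNA 1, siRNA 2 and control siRNA; each vertical axis starts at 0. NDUFA5, NDUFAF2, UQCRC2 and ATP5MD are higher than control with both siRNAs, NDUFB4 and NDUFV3 lower with both, COX7A2L lower with siRNA 2 and SDHA higher with siRNA 2.

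Complex V had the largest share of rises with siRNA 1, 12 of 18 (66.7%, against 21.2% of all genes), and 13 of 18 with siRNA 2 (72.2%, against 24.4%), with no called fall when all libraries were used. ATP5MD (GRCh38 chr10:103389041-103396492, minus strand), also named DAPIT or USMG5, a small membrane subunit that helps ATP synthase form dimers, had 119, 115 and 111 FPKM with siRNA 1 and 101, 104 and 106 FPKM with siRNA 2, against 64.4, 59.6 and 64.8 FPKM with control siRNA. The lowest knockdown library was well above the highest control library. ATP5MD rose by 0.85 ± 0.06 (adjusted p = 2.17e-05) and 0.66 ± 0.06 (adjusted p = 3.31e-05) on the log2 scale, and the direct difference was 0.18 ± 0.06 (adjusted p = 0.0370). Its exons overlap TAF5 on the other strand and the microRNA gene MIR1307. ATP5ME, also of the membrane part, had 193, 160 and 160 FPKM with siRNA 1 and 168, 173 and 167 FPKM with siRNA 2, against 127, 121 and 113 FPKM with control siRNA, and rose by 0.49 ± 0.09 (adjusted p = 0.00232) and 0.44 ± 0.09 (adjusted p = 0.00299). Of the 5 tested subunits grouped here as other membrane subunits, ATP5MD and ATP5ME included, 4 rose with each siRNA (80.0%).

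The peripheral stalk, which holds the F1 head still, had 3 of 4 rises with each siRNA (75.0%, against 21.2% and 24.4% of all genes). ATP5PB had 61.9, 48.2 and 58.4 FPKM with siRNA 1 and 56.3, 55.9 and 54.7 FPKM with siRNA 2, against 35.9, 36.0 and 35.0 FPKM with control siRNA, and rose by 0.63 ± 0.09 (adjusted p = 7.77e-04) and 0.59 ± 0.09 (adjusted p = 7.98e-04). ATP5PO, the oligomycin sensitivity protein, rose by 0.68 ± 0.14 (adjusted p = 0.00414) and 0.62 ± 0.14 (adjusted p = 0.00499). ATP5PF had 71.4, 65.9 and 67.6 FPKM with siRNA 1 and 54.9, 54.0 and 57.6 FPKM with siRNA 2, against 47.7, 46.9 and 43.9 FPKM with control siRNA, and rose more with siRNA 1 (0.54 ± 0.06, adjusted p = 2.19e-04) than with siRNA 2 (0.21 ± 0.06, adjusted p = 0.0189; difference 0.33 ± 0.06, adjusted p = 0.00285). ATP5PD, the fourth, was not called, at -0.29 (adjusted p = 0.0682) and -0.24 (adjusted p = 0.119); without siRNA 1 replicate 1 it was called lower in both. All 4 overlap other genes in exons: ATP5PB overlaps WDR77, ATP5PF overlaps GABPA and JAM2, ATP5PO overlaps AP000311.1 and LINC00649, and ATP5PD overlaps KCTD2 and RN7SL573P.

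The rotating c ring is built from a peptide that ATP5MC1, ATP5MC2 and ATP5MC3 all encode. ATP5MC1 had 24.0, 25.3 and 23.7 FPKM with siRNA 1 and 26.8, 26.1 and 25.7 FPKM with siRNA 2, against 17.0, 17.2 and 16.9 FPKM with control siRNA. ATP5MC2, the highest of them, had 59.3, 51.0 and 46.7 FPKM with siRNA 1 and 35.5, 36.2 and 37.4 FPKM with siRNA 2, against 37.0, 34.7 and 34.2 FPKM with control siRNA. ATP5MC1 was thus above control with both, and ATP5MC2 with siRNA 1. ATP5MC2 rose with siRNA 1 (0.54 ± 0.09, adjusted p = 0.00153), with -0.01 ± 0.09 for siRNA 2 (adjusted p = 0.917) and a difference of 0.56 ± 0.09 (adjusted p = 0.00141), while the siRNA 1 minus siRNA 2 difference of ATP5MC1 was -0.08 ± 0.05 (adjusted p = 0.290). ATP5MC3 changed by 0.13 ± 0.06 (adjusted p = 0.140) and 0.18 ± 0.06 (adjusted p = 0.0426). Of the 5 tested subunits of the F1 head and central stalk, 2 rose with siRNA 1 and 3 with siRNA 2 (40.0% and 60.0%, against 21.2% and 24.4% of all genes). Their medians were 0.22 and 0.23, and those of the c ring genes 0.49 and 0.18. ATP5F1A, the alpha subunit, changed by 0.10 ± 0.08 (adjusted p = 0.355) and 0.25 ± 0.08 (adjusted p = 0.0354), and ATP5F1C, the gamma subunit, rose by 0.22 ± 0.06 (adjusted p = 0.0218) and 0.23 ± 0.06 (adjusted p = 0.0157). ATP5F1B had 520, 567 and 513 FPKM with siRNA 1 and 629, 677 and 618 FPKM with siRNA 2, against 536, 550 and 527 FPKM with control siRNA, with changes of -0.04 ± 0.06 (adjusted p = 0.648) and 0.20 ± 0.06 (adjusted p = 0.0195) and a difference of -0.24 ± 0.06 (adjusted p = 0.0118). ATP5IF1, the protein that inhibits ATP hydrolysis by the enzyme, rose by 0.34 ± 0.06 (adjusted p = 0.00312) and 0.28 ± 0.06 (adjusted p = 0.00663).

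Many of these calls are small, and not all survive the loss of 1 library. With siRNA 1, 31 of 41 calls held whichever of the 9 libraries was left out. Those that did not were ATP5F1C, ATP5F1E, COX6B1, NDUFA1, NDUFA10, NDUFA4, NDUFAB1, NDUFB6, NDUFS6 and NDUFV2, with an adjusted p of at most 0.128. Leaving out control replicate 1, 2 or 3 ended 7, 7 and 4 of them, siRNA 1 replicate 1, 2 or 3 ended 2, 1 and 1, and each siRNA 2 library 2. With siRNA 2, 32 of 45 held, and ATP5F1A, ATP5F1B, ATP5F1C, ATP5MC3, ATP5MPL, ATP5PF, COX7A2, NDUFA11, NDUFAF7, NDUFS3, NDUFV1, NDUFV2 and UQCRH did not, with at most 0.155. The numbers ended were 12, 9 and 8 for control replicates 1, 2 and 3, 0, 1 and 3 for the siRNA 1 libraries and 9, 10 and 8 for the siRNA 2 libraries. In the direct contrast 16 of 27 held, and among those that did not, with at most 0.127, were ATP5MD, ATP5MG, COX6B1, NDUFA6, NDUFAB1, NDUFAF7, NDUFS3, NDUFV1, UQCR11 and UQCRC2. There the control libraries ended 5, 4 and 1, the siRNA 1 libraries 4, 5 and 6 and the siRNA 2 libraries 7, 10 and 8. The signs of all these values stayed the same.

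Mobile carriers and further assembly factors formed a list of their own. Of 56 tested, 22 rose and 3 fell with siRNA 1 (39.3% and 5.36%, against 21.2% and 20.5% of all genes), with a median log2 fold change of 0.26. The counts were 19 and 3 without siRNA 1 replicate 1 (median 0.27). With siRNA 2, 17 rose and 10 fell (30.4% and 17.9%, near the 24.4% and 24.9% of all genes), with a median of 0.09. The direct contrast had 18 higher and 3 lower with siRNA 1 (32.1% and 5.36%, against 20.6% and 18.9%; median 0.08), and 14 and 7 without siRNA 1 replicate 1. CYCS, cytochrome c, had 38.9, 35.8 and 37.1 FPKM with siRNA 1 and 39.9, 38.3 and 40.3 FPKM with siRNA 2, against 20.0, 20.9 and 20.2 FPKM with control siRNA. It rose by 0.85 ± 0.06 (adjusted p = 2.11e-05) and 0.90 ± 0.06 (adjusted p = 6.25e-06), and the 6 knockdown libraries were clear of the controls. FMC1, an assembly factor of the ATP synthase, rose by 1.59 ± 0.16 (adjusted p = 1.26e-04) and 1.72 ± 0.16 (adjusted p = 4.14e-05), but it shares exons with LUC7L2 and a read-through gene. COX15, which makes heme A, rose by 0.51 ± 0.05 (adjusted p = 1.61e-04) and 0.32 ± 0.05 (adjusted p = 0.00116). LRPPRC, which stabilises mitochondrial mRNAs, rose by 0.28 ± 0.07 (adjusted p = 0.00830) and 0.71 ± 0.07 (adjusted p = 3.85e-05). TMEM126B, a complex I assembly factor, fell with siRNA 2 (-0.92 ± 0.14, adjusted p = 6.32e-04), with -0.04 ± 0.14 for siRNA 1 (adjusted p = 0.848) and a difference of 0.88 ± 0.14 (adjusted p = 0.00118). COX17, the copper chaperone of complex IV, was higher than control with siRNA 1 (0.26 ± 0.08, adjusted p = 0.0238) and lower with siRNA 2 (-0.31 ± 0.08, adjusted p = 0.00949). It shares exon positions with POPDC2, so its count is uncertain.

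Coenzyme Q carries electrons from complexes I and II to complex III. Of 13 genes for its synthesis, 5 rose and 1 fell with siRNA 1 (38.5% and 7.69%, against 21.2% and 20.5% of all genes). The median was 0.16, and 0.04 with the same counts when siRNA 1 replicate 1 was left out. With siRNA 2, 3 rose and 4 fell (23.1% and 30.8%, near the 24.4% and 24.9% of all genes; median 0.13). COQ2, which attaches the tail to the ring, had 5.91, 5.09 and 5.77 FPKM with siRNA 1 and 1.68, 1.90 and 2.04 FPKM with siRNA 2, against 2.69, 2.62 and 2.11 FPKM with control siRNA. It was higher than control with siRNA 1 (1.15 ± 0.13, adjusted p = 2.51e-04) and lower with siRNA 2 (-0.45 ± 0.13, adjusted p = 0.0210), and the difference was 1.60 ± 0.13 (adjusted p = 4.03e-05). The partners that make the tail divided in opposite ways: PDSS1 rose by 0.53 ± 0.11 with siRNA 1 (adjusted p = 0.00604) but had -0.34 ± 0.11 with siRNA 2 (adjusted p = 0.0358), while PDSS2 had -0.57 ± 0.12 (adjusted p = 0.00560) and 0.38 ± 0.12 (adjusted p = 0.0278). COQ3 and COQ4 rose with both, by 0.51 and 0.57 with siRNA 1 and by 0.75 and 0.61 with siRNA 2 on the log2 scale. PDSS1 shares exon positions with ABI1 and COQ4 with TRUB2, so their counts are uncertain.

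The mitochondrial genome's own contribution did not follow the nuclear subunits with siRNA 1. Mitochondrial genes took 8.25%, 9.20% and 9.61% of all counts with siRNA 1 and 12.0%, 12.0% and 12.2% with siRNA 2, against 10.4%, 11.1% and 10.2% with control siRNA. Of the 13 mitochondrially encoded mRNAs of the chain, none rose and 4 fell with siRNA 1 (30.8%, against 20.5% of all genes; median -0.22). With siRNA 2, 3 rose (23.1%, near the 24.4% of all genes) and none fell, with a median of 0.11. In the direct contrast 10 of 13 were lower with siRNA 1 (76.9%, against 18.9% of all genes) and none higher (median -0.37). All 13 come from the mitochondrial genome, and its share of counts was lower in every siRNA 1 library than in every siRNA 2 library. These calls are thus not independent of each other. MT-ND1, of complex I, had 4033, 4667 and 4688 FPKM with siRNA 1 and 7974, 8187 and 8194 FPKM with siRNA 2, against 5612, 6469 and 5626 FPKM with control siRNA. It fell with siRNA 1 (-0.43 ± 0.08, adjusted p = 0.00284), rose with siRNA 2 (0.40 ± 0.08, adjusted p = 0.00293) and differed by -0.83 ± 0.08 (adjusted p = 8.33e-05). MT-ND6, the one encoded on the other strand, fell by 0.58 ± 0.08 with siRNA 1 (adjusted p = 6.25e-04), next to 0.01 ± 0.08 for siRNA 2 (adjusted p = 0.937), and MT-ND2 had -0.17 ± 0.09 (adjusted p = 0.139) and 0.48 ± 0.09 (adjusted p = 0.00169). Without siRNA 1 replicate 1, the counts were 4 lower with siRNA 1 (median -0.11), and 9 lower in the direct contrast (median -0.30). Counts for these mRNAs depend on how length is treated: with a length trend taken out of each library, 12 fell with siRNA 1 (median -0.52), and 1 rose and 2 fell with siRNA 2 (median -0.05).

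Among 16 tested regulators of mitochondrial gene expression, 6 rose and none fell with siRNA 1 (37.5% rose, against 21.2% of all genes; median 0.21, and 0.18 with the same counts without siRNA 1 replicate 1). With siRNA 2, 7 rose and 1 fell (43.8% and 6.25%, against 24.4% and 24.9%; median 0.24). The 1 that fell was TFAM, which packages mitochondrial DNA and starts its transcription. TFAM had 16.0, 18.2 and 17.4 FPKM with siRNA 1 and 9.52, 9.52 and 9.89 FPKM with siRNA 2, against 16.9, 19.3 and 18.4 FPKM with control siRNA. It changed by -0.11 ± 0.07 with siRNA 1 (adjusted p = 0.255) and fell by 0.98 ± 0.07 with siRNA 2 (adjusted p = 1.23e-05), a difference of 0.86 ± 0.07 (adjusted p = 4.10e-05), and the siRNA 2 libraries were also those with the highest mitochondrial share of counts. Whether these values bear on each other was not tested. POLRMT, the mitochondrial RNA polymerase, rose with siRNA 2 (0.64 ± 0.07, adjusted p = 1.44e-04), with 0.20 ± 0.07 for siRNA 1 (adjusted p = 0.0598). PPRC1, a coactivator related to PGC-1, rose by 0.53 ± 0.06 (adjusted p = 2.30e-04) and 0.56 ± 0.06 (adjusted p = 8.34e-05), and TFB1M, which methylates mitochondrial ribosomal RNA and lay at 0.812 to 0.917 FPKM in the control libraries, by 0.97 ± 0.11 (adjusted p = 2.71e-04) and 0.64 ± 0.11 (adjusted p = 0.00177). TFB1M and POLG2 (0.655 to 0.745 FPKM with control siRNA) passed the filter only through the knockdown libraries. Both are in the counts of rises with each siRNA, where they could enter only by being higher than control. The mRNAs of NRF1 (-0.03 and 0.05), GABPA (-0.06 and 0.17) and YY1 (-0.24 and -0.36) were not called with siRNA 1 or siRNA 2, with adjusted p of at least 0.229. PPARGC1A, the coactivator PGC-1alpha, was below the filter in every library, at 0.0668 to 0.140 FPKM with siRNA 1 and 0.0128 to 0.0300 with siRNA 2, against 0.0874 to 0.133 with control siRNA.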

How the data were processed

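RNA sequencing libraries from 9 VCaP samples (3 each with KMT2C siRNA 1, KMT2C siRNA 2 and control siRNA) were analysed from a single table. Per the file headers it holds counts and FPKM. The deposited count columns are handled in the way of expected counts: they are whole numbers, not normalized, and low values peak at 4, 8 and 12, which puts 1 fragment at about 4 counts (values of 1, 2 and 3 also occur). Rounding them for the test changed none. The FPKM values were calculated by the authors with a gene-model length, and 321957 values of genes without counts are listed at 0.0001. Bowtie 0.12.2 and the builds hg38 and mm8 are named without a role, per the submitters' processing notes. Counting tool and annotation: not given in the sources used here. The design text speaks of retinal RNA, while the sample labels name VCaP. All 96 member identifiers are in GENCODE release 29 on GRCh38 at overlapping positions, so coordinates are on GRCh38. Without a stated strand, reads of overlapping genes cannot be told apart: 47 tested members share exon positions with another gene, and 49 members have pseudogene copies. The summed FPKM of those copies was 1.01% to 1.38% of that of members and copies together.

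The 12830 genes with an FPKM of 1 or more in 3 or more libraries were tested. edgeR 4.0.16 in R 4.3.3 (with the data.table package at version 1.17.8) was fitted on the counts of all 9 libraries with TMM scaling, 1 mean per group and the quasi-likelihood F test, 2-sided, with Benjamini-Hochberg adjustment over all tested genes and a threshold of 0.05. Log2 fold changes carry a standard error (SE), levels a standard deviation (SD). Library totals were 58462215 to 70726213 counts, and precision rests on the spread between libraries as well as on depth. The fit was tested on simulated data first, for siRNA 1 against control. There 12% and 14% of the changes of 0.5 and -0.5 on the log2 scale were called, and 56% and 50% of those of 1 and -1. Of 12630 genes left unchanged 6 were called. Few genes were changed in the simulation, so these shares need not hold for the data, but a true change can go uncalled. In the data, no 2 libraries of a group agreed within sampling noise. The members and gene lists were chosen with earlier results of these data known. Full values were given for up to 3 members per complex and comparison with the smallest adjusted p, the 2 highest of each complex, KMT2C and up to 3 genes per list and comparison; other members named were chosen after their values were seen, and 1 member is not reported here by name. Promoter letters were matched on both strands of RefSeq windows. Alternatives were RLE scaling, DESeq2 1.42.0, other filters, limma 3.58.1 on log2(FPKM + 1) and log2(FPKM + 0.1), no mitochondrial genes in the library sizes, only the groups compared, a replicate block and each library left out. After the data were seen, counts divided by 4 and a length trend fitted per library were added.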

Additional observations from a re-analysis of the deposited data

Results flagged for a closer look

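The effects of the siRNAs differed in the direct contrast (siRNA 1 minus siRNA 2, log2 scale, edgeR's quasi-likelihood test, Benjamini-Hochberg adjusted p) for 27 of the 88 tested members. Of the members 18.2% were higher and 12.5% lower with siRNA 1, no more than the 20.6% and 18.9% of all genes tested. Among these 27, in complex I, were NDUFA10 (-0.31), NDUFA5 (-0.36), NDUFA6 (-0.21), NDUFS4 (-0.28) and NDUFV1 (-0.61), lower with siRNA 1, and NDUFAB1 (0.35), NDUFB2 (0.41), NDUFC2 (0.80), NDUFS3 (0.34), NDUFV2 (0.43) and NDUFV3 (0.42), higher with it. The assembly factors NDUFAF6 (0.57) and NDUFAF7 (0.37) were higher with siRNA 1. In complex II, SDHA (-0.43) and SDHD (-0.44) were lower and SDHC (0.26) was higher. In complex III, UQCRC2 (-0.17) was lower, and UQCR11 (0.25) and UQCRQ (0.56) were higher. In complex IV, COX6B1 (-0.20) was lower and COX7A2L (2.11, adjusted p = 2.02e-05) higher. In complex V, ATP5F1B (-0.24) was lower, and ATP5MC2 (0.56), ATP5MD (0.18), ATP5MG (0.73) and ATP5PF (0.33) were higher.

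Without siRNA 1 replicate 1, the calls of ATP5MD, ATP5MG, NDUFS3 and UQCR11 were lost and 11 others were gained. The size of the COX7A2L difference set it apart from the other 26, which lay between -0.61 and 0.80.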

How the results depend on the processing

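Over 20 alternatives, none of 54 called values given in full reversed, and 42 of them kept their call throughout. The 39 members higher with siRNA 1 ranged from 33 to 40 and the 38 higher with siRNA 2 from 28 to 47 as each library was left out. With the length trend removed, 33 of the 41 calls with siRNA 1 and 41 of the 45 with siRNA 2 were kept. The 8 and 4 calls lost were all rises. Of calls gained there were 5 with siRNA 1, all falls, and 6 with siRNA 2, in both directions. The 2 members lower with siRNA 1 became 4 with DESeq2, 7 with the length trend removed and 2 to 5 without 1 library (5 without siRNA 1 replicate 1). The 7 lower with siRNA 2 became 11 with the length trend removed and 5 to 9 without 1 library. In the direct contrast, 16 higher with siRNA 1 ranged from 10 to 20, and 11 lower from 7 to 22 (22 without siRNA 1 replicate 1) and were 5 with no filter beyond a count above 0 (4 of the 88, and NDUFA4L2, which then entered the test). The siRNA 1 minus siRNA 2 difference in KMT2C was 0.27 with the length trend removed (edgeR adjusted p = 0.0499). Counts over all genes stayed within 1.5 times. Same-numbered libraries did not deviate together (correlations -0.069 to 0.039), so their numbers were not taken as pairs. With the replicate block, 38 rose and 2 fell with siRNA 1, 33 and 6 with siRNA 2, and 13 and 9 were higher and lower in the direct contrast. Values not called in the fit used above that changed sign with the length trend removed were NDUFS5 (-0.154 with siRNA 1 and -0.096 with siRNA 2), UQCR10 with siRNA 2 (-0.073), and SDHD (-0.01), COX8A (-0.292) and COX6A1 (-0.091) with siRNA 1. COX8A was then called lower with siRNA 1 and also with siRNA 2 (-0.343). As each library was left out, SDHD ranged from -0.031 to 0.15 and COX6A1 from -0.032 to 0.154 with siRNA 1, NDUFB7 from -0.042 to 0.085 and ATP5ME from -0.06 to 0.103 in the direct contrast, each negative without siRNA 1 replicate 1, and COX8A with siRNA 2 from -0.04 to 0.017, positive without control replicate 3. COX8A with siRNA 2 was 0.039 with limma at both pseudocounts, and the NDUFAF2 difference was 0.004 with no filter and 0.001 with edgeR's own filter. The cause of these changes was not tested. Close to 4 counts stand for 1 fragment, so the precision of low members is less than their counts imply.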
